A study of Mus musculus with 6 samples.

Results

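Condensin and SMC subunit transcripts were followed through 10 genes in 2 lines of fibroblasts cultured from mouse embryos, the cells that make connective tissue. The 10 genes were set by name, with earlier results of these data known, and fall into 4 groups. Condensin I was represented by Ncapd2, Ncapg and Ncaph, and condensin II by Ncapd3, Ncapg2 and Ncaph2. Smc2 and Smc4 encode the core pair of both condensins, and Smc1a and Smc3 the core pair of cohesin. Each of the 10 had exactly 1 single-gene probe set among the 19938 genes measured.

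The tetraploid line carries the code 174 and is described as having abnormal DNA content, and the series title calls such cells transformed. The diploid line carries the code FW and served as the normal control. Each line gave 3 samples of total RNA, grown in the same serum-containing medium to near confluence and hybridised to whole-transcript Affymetrix arrays. With a single line for each ploidy, effects of ploidy, of transformation and of the line itself cannot be told apart, and the labels leave unsaid if separate cultures gave the 3 samples. So the p-values below reflect only how far these samples spread, which may be technical.

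Condensin and cohesin are ring-shaped protein complexes built on a pair of SMC ATPases, long coiled-coil proteins that close around DNA and extrude it into loops. Condensin compacts chromosomes in mitosis. Condensin II is nuclear through the cell cycle and acts first, while condensin I reaches the chromosomes after the nuclear envelope breaks down. Cohesin holds sister chromatids together from replication to anaphase and also folds interphase chromosomes. Within each condensin, a kleisin (Ncaph or Ncaph2) bridges the SMC heads and carries a pair of HEAT-repeat subunits (Ncapd2 and Ncapg, or Ncapd3 and Ncapg2).

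All 10 transcripts stood higher in the tetraploid line, and 9 of them passed the test. The test was limma's moderated test over all genes, two-sided, with a call at a Benjamini-Hochberg adjusted p below 0.05. The exception was Smc2. Across all genes, 6.08% rose in the tetraploid line and 7.75% fell. The median difference of the 10 was 1.38 on the log2 scale, against 0.07 over all genes. All 3 tetraploid values lay above all 3 diploid values in each of the 10 genes, as they did in 19.1% of all genes. Every value of the 10 genes was above the background level, taken as the 95th percentile of the olfactory receptor genes on that array. The differences are relative to other genes on the array and give no amount per cell.

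Fewer members passed when a sample was left out: 6, 5 and 8 without tetraploid arrays 1, 2 and 3, and 4, 2 and 6 without diploid arrays 1, 2 and 3. Calls over all genes, up or down, dropped as well, from 2758 with all arrays. They numbered 2522, 1589 and 2370 without tetraploid arrays 1 to 3, and 1040, 839 and 1262 without diploid arrays 1 to 3. Without diploid array 2, only Ncapd2 and Ncaph2 were called, and 1.31% of all genes rose.

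Promoter sequences are shown for the 4 condensin genes that passed the test and hold a word of the cell cycle genes homology region (CHR) in their first window, and for Smc3, which held none of the words searched. CHR elements are bound by the DREAM and MuvB complexes and E2F sites by E2F proteins, and both are known for timing transcription in dividing cells. CCAAT boxes are bound by NF-Y. The windows run from 250 bases before to 50 after the transcript start, from RefSeq on GRCm38.p6, and 9 of the 10 genes were matched. The words, searched on both strands after the expression values were known, were TTTGAA and TTCGAA for CHR, CCAAT for the CCAAT box, and for E2F the word TTCCCGC or its variants TTGGCGC and also TTCGCGC and further TTGCCGC. No word overlapped another in the sequences printed. Capitals mark every match.
Ncapd2 promoter, GRCm38.p6 chr6:125191537-125191836, minus strand: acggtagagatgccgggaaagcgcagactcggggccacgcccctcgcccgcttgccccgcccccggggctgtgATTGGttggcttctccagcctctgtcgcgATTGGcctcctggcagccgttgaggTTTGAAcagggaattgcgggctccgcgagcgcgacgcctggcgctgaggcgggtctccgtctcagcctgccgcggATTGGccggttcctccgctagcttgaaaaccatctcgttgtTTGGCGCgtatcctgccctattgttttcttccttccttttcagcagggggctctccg
Ncapg promoter, GRCm38.p6 chr5:45669675-45669974, plus strand: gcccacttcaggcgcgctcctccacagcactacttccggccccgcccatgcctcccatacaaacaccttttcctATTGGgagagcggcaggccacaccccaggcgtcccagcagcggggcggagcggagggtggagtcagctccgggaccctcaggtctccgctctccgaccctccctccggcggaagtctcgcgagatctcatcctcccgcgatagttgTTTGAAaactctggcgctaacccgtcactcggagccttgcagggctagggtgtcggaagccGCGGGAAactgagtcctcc
Ncapg2 promoter, GRCm38.p6 chr12:116405186-116405485, plus strand: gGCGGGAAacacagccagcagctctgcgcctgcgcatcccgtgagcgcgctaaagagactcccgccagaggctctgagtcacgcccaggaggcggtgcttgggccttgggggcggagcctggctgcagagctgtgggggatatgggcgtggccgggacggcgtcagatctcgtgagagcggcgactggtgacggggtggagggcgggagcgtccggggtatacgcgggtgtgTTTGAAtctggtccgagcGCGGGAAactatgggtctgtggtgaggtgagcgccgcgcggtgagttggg
Ncaph2 promoter, GRCm38.p6 chr15:89355469-89355768, plus strand: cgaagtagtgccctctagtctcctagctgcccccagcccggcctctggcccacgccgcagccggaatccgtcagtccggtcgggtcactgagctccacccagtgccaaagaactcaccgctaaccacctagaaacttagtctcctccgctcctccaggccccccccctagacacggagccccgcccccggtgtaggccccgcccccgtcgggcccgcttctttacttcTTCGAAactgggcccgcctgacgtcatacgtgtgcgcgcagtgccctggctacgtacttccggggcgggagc
Smc3 promoter, GRCm38.p6 chr19:53600146-53600445, plus strand: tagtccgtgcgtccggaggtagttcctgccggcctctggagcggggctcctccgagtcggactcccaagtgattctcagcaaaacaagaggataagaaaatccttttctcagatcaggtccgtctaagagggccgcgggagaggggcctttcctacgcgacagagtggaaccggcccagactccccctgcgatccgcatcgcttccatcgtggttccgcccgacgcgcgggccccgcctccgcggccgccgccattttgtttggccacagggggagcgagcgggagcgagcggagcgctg

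In Ncapg, TTTGAA began 30 bases before the start and an E2F word, reversed, at position 32 (the start is position 1). In Ncapg2, TTTGAA began 18 bases before the start and a reversed E2F word at position 1, and a further E2F word lay 249 bases before the start. In Ncaph2, TTCGAA began 22 bases before the start. In Ncapd2, TTTGAA lay farther out, 123 bases before the start, with 3 reversed CCAAT words and TTGGCGC beginning 7 bases before the start. A CHR word was found in 5 of the 9 matched genes, all of them condensin genes (the fifth is Smc2), against 19.2% of all 32817 promoter windows. As 7 of the 9 matched are condensin genes, only Smc1a and Smc3 stood outside them. An E2F word was found in 6 of the 9, against 9.57% of windows, and CCAAT in 4 of the 9, against 37.4%. For Ncapd3, which has more than 1 window, the first was counted. A match is a description of letters and not evidence of binding, and windows were not matched for base composition.

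The transcripts of all 3 subunits particular to condensin I rose. Ncapd2, a HEAT-repeat subunit, read 11.69, 11.68 and 11.48 on tetraploid arrays 1 to 3 against 9.24, 9.29 and 9.88 on the diploid ones in the same order, all on the log2 scale. The lines were separated by a gap of 1.60, the widest of the 10 genes, although diploid array 3 was above the other diploid arrays. Ncapd2 was 4.43-fold higher (log2 difference 2.15 ± 0.24, SE; n = 3 per line; limma adjusted p = 0.00354).

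Ncapg, the other HEAT-repeat subunit, stood at 10.61, 10.12 and 9.91 against 8.32, 8.21 and 8.89. Its difference was 1.74 ± 0.28 (SE, n = 3 per line), or 3.34-fold (limma adjusted p = 0.0115). Tetraploid array 1 was the highest of its line and diploid array 3 of the other, with no overlap. Ncaph, the kleisin, stood at 9.86, 9.91 and 9.66 against 7.91, 8.21 and 8.82. It was 2.82-fold higher (1.50 ± 0.27, SE, n = 3 per line; limma adjusted p = 0.0164). The diploid values of Ncaph spread the most of any member there (SD 0.46), while its tetraploid values lay close together (SD 0.13). The call of Ncapd2 held whichever array was left out (limma adjusted p 0.00878 to 0.0214). That of Ncapg ended without diploid array 2 (limma adjusted p = 0.0536), and that of Ncaph without tetraploid array 2 or diploid array 1 or 2 (limma adjusted p 0.0521, 0.0566 and 0.0699).

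**Figure D1:**
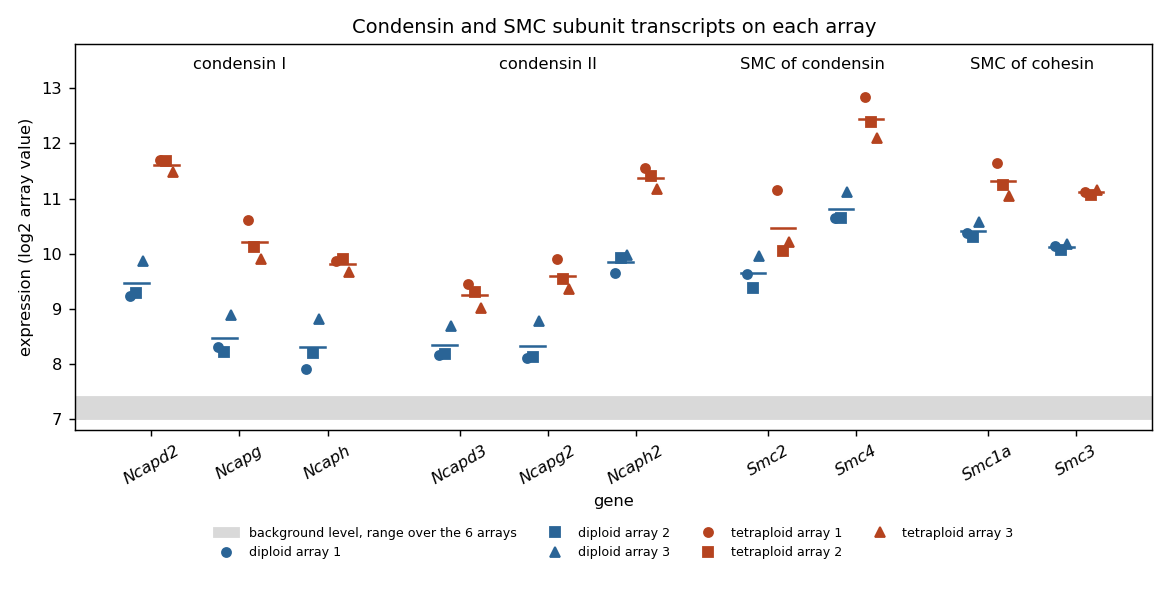
Log2 array values of the 10 genes on each of the 6 arrays, by complex. Points are arrays, short lines are means over 3 arrays, and the grey band is the range of the background level. Every tetraploid value lies above every diploid value of its gene, and all lie above the band, whose upper edge is 7.41.

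The 3 subunits particular to condensin II rose too. Ncaph2, the kleisin, stood at 11.56, 11.40 and 11.18 against 9.66, 9.92 and 9.98. Both lines were tight (SD 0.19 and 0.17), and Ncaph2 was 2.88-fold higher (1.53 ± 0.21, SE, n = 3 per line; limma adjusted p = 0.00648). Among condensin II transcripts it was the only 1 whose call held whichever array was left out (limma adjusted p 0.0130 to 0.0351).

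Ncapg2, a HEAT-repeat subunit, stood at 9.91, 9.54 and 9.37 against 8.11, 8.13 and 8.77. It was 2.41-fold higher (1.27 ± 0.27, SE, n = 3 per line; limma adjusted p = 0.0260). Its groups were 0.591 apart, with diploid array 3 nearest to the tetraploid values. The call of Ncapg2 ended without tetraploid array 1 or 2 or diploid array 1 or 2 (limma adjusted p 0.0560, 0.0649, 0.0949 and 0.104).

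Ncapd3, the other HEAT-repeat subunit, stood at 9.46, 9.30 and 9.01 against 8.17, 8.19 and 8.68. Its lowest tetraploid and highest diploid values were 0.330 apart. It was 1.88-fold higher (0.91 ± 0.24, SE, n = 3 per line; limma adjusted p = 0.0478). This call lay at the threshold and ended without any 1 of the arrays (limma adjusted p 0.0551 to 0.166).

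The SMC pair that both condensins share was measured unevenly. Smc4 stood at 12.84, 12.39 and 12.10 against 10.65, 10.64 and 11.12, and was 3.12-fold higher (1.64 ± 0.27, SE, n = 3 per line; limma adjusted p = 0.0116). The call of Smc4 ended without diploid array 2 (limma adjusted p = 0.0563). Smc2 stood at 11.15, 10.05 and 10.22 against 9.63, 9.38 and 9.96. Tetraploid array 1 was far above the other tetraploid arrays, which gave Smc2 the largest SD of the 10 genes (0.59), and only 0.0914 separated tetraploid array 2 from diploid array 3. Its log2 difference of 0.82 had a 95% interval of 0.02 to 1.62 and did not pass (limma adjusted p = 0.160). Without tetraploid array 1 that difference was 0.48 (limma adjusted p = 0.242). The interval reaches from near 0 almost to the difference of Smc4, so the data do not show that Smc2 was unchanged.

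The cohesin SMC pair rose by less than 1 log2 unit. Smc3 stood at 11.12, 11.06 and 11.16 against 10.14, 10.07 and 10.18, with the smallest spread of the 10 genes in both lines (SD 0.05 and 0.06). It was 1.98-fold higher (0.98 ± 0.18, SE, n = 3 per line; limma adjusted p = 0.0158). Smc1a stood at 11.65, 11.25 and 11.04 against 10.38, 10.31 and 10.57, and was 1.86-fold higher (0.89 ± 0.23, SE, n = 3 per line; limma adjusted p = 0.0453). The call of Smc3 ended without any 1 diploid array (limma adjusted p 0.0659, 0.0809 and 0.0552 in order). The call of Smc1a ended without any 1 array except tetraploid array 3 (limma adjusted p 0.0693 to 0.158).

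**Figure D2:**
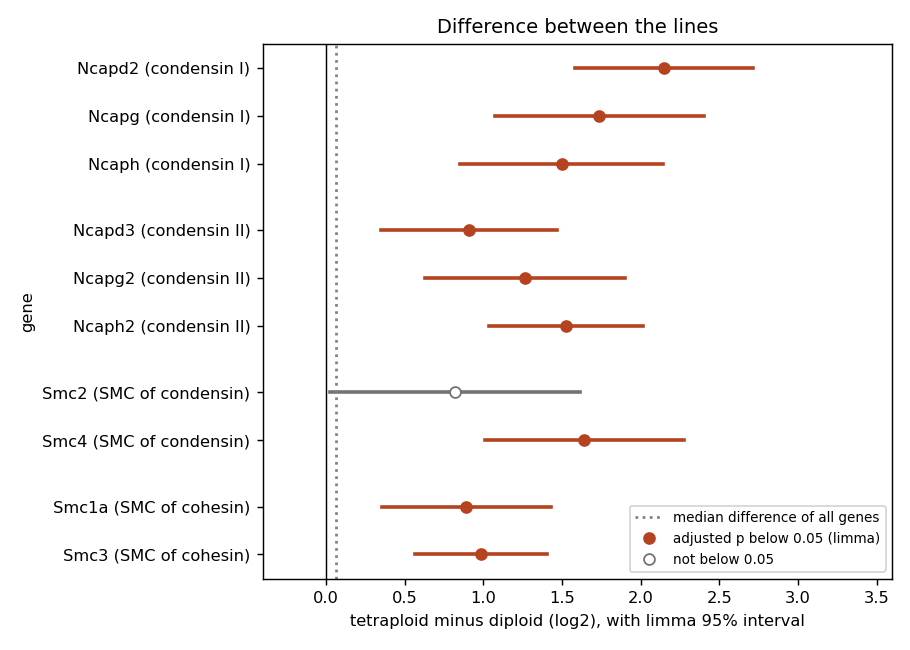
Log2 difference between the lines for each gene, with limma's 95% interval; filled points passed at an adjusted p below 0.05. The differences run from 0.82 for Smc2 to 2.15 for Ncapd2, and intervals of many genes overlap.

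Corresponding subunits were compared on the same array, which asks whether they moved by unequal amounts. With 3 arrays against 3, the exact two-sided permutation test cannot give a p below 0.1, so no pair could pass at 0.05. Of the 5 pairs compared, 3 did not overlap between the lines. The share of all gene pairs that do so was not computed, so this count has no comparison. Ncapd2 minus Ncapd3 was 2.23, 2.38 and 2.46 in the tetraploid line against 1.06, 1.10 and 1.19 in the diploid line. The ratio of the condensin I to the condensin II transcript was thus 2.36-fold higher in the tetraploid line (exact permutation p = 0.1, 0.167 after Benjamini-Hochberg adjustment over the 5).

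Ncapg minus Ncapg2 was 0.70, 0.58 and 0.55 against 0.21, 0.09 and 0.11, a change in ratio of 1.39-fold in the same direction (exact permutation p = 0.1, adjusted 0.167). For the kleisins the groups overlapped: Ncaph minus Ncaph2 averaged -1.57 ± 0.11 against -1.54 ± 0.33 (SD, n = 3; exact permutation p = 1). Leaving out tetraploid array 1 or diploid array 3 turned the sign of this change, from -0.03 to 0.03 and 0.16. Over all 6 arrays, both HEAT-repeat pairs were separated between the lines and the kleisin pair was not. The kleisin overlap rested on diploid array 3 (-1.16). As no pair could pass the test, a difference between the HEAT-repeat and kleisin pairs is not shown. The pair Smc2 minus Smc4 was -1.69, -2.34 and -1.88 against -1.02, -1.26 and -1.17, so the ratio of Smc2 to Smc4 was 1.77-fold lower in the tetraploid line (exact permutation p = 0.1, adjusted 0.167). Smc1a minus Smc3 overlapped (0.20 ± 0.32 against 0.29 ± 0.09, SD, n = 3; exact permutation p = 0.7, adjusted 0.875). Its change of -0.09 became 0.068 without tetraploid array 3.

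**Figure D3:**
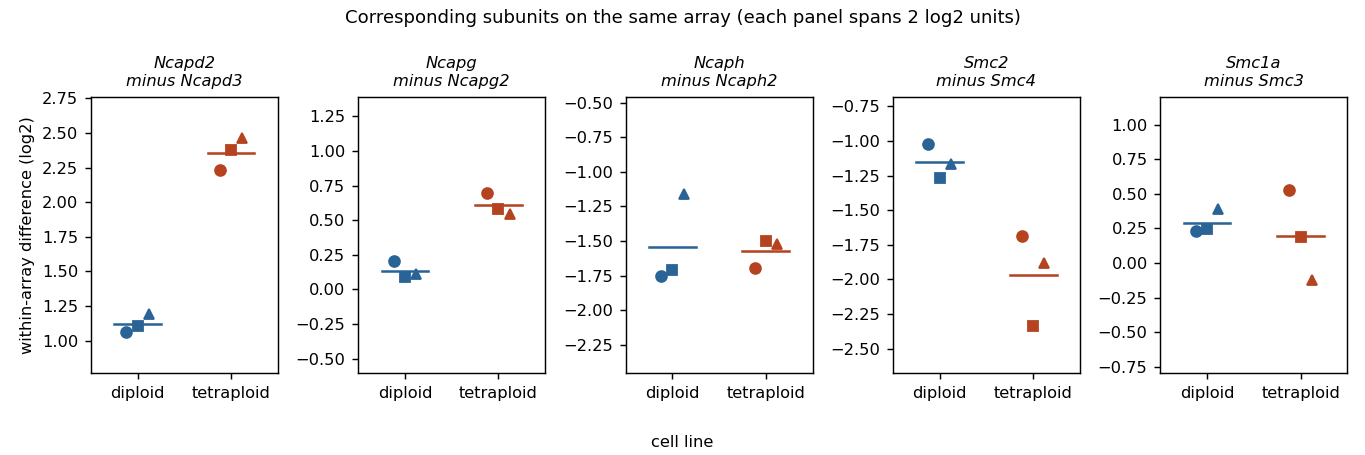
Log2 difference between corresponding subunits on each array, diploid and tetraploid; points are arrays and lines are means. The lines are apart for Ncapd2 minus Ncapd3, Ncapg minus Ncapg2 and Smc2 minus Smc4, and overlap for the other 2 pairs.

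The members also varied together within a line. Diploid array 3 held the highest diploid value in all 10 genes, against 39.2% of all genes, with a median deviation of 0.33 above the mean of its line. Tetraploid array 1 held the highest tetraploid value in 8 of the 10, against 37.4% of all genes (median deviation 0.25), and tetraploid array 3 the lowest in 8, against 34.4% (median deviation -0.24). Ncaph and Smc3 were the exceptions among the highest values. The 11 measured cell cycle marker genes moved with them: all 11 were highest in diploid array 3 within that line, and 7 of 11 in tetraploid array 1. Their mean level ran from 9.45 to 10.05 in the diploid line and from 10.53 to 11.05 in the tetraploid line. The part of the share of dividing cells in the differences between the lines was not tested, and in bulk RNA more cells in division and more RNA per cell cannot be told apart.

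**Figure D4:**
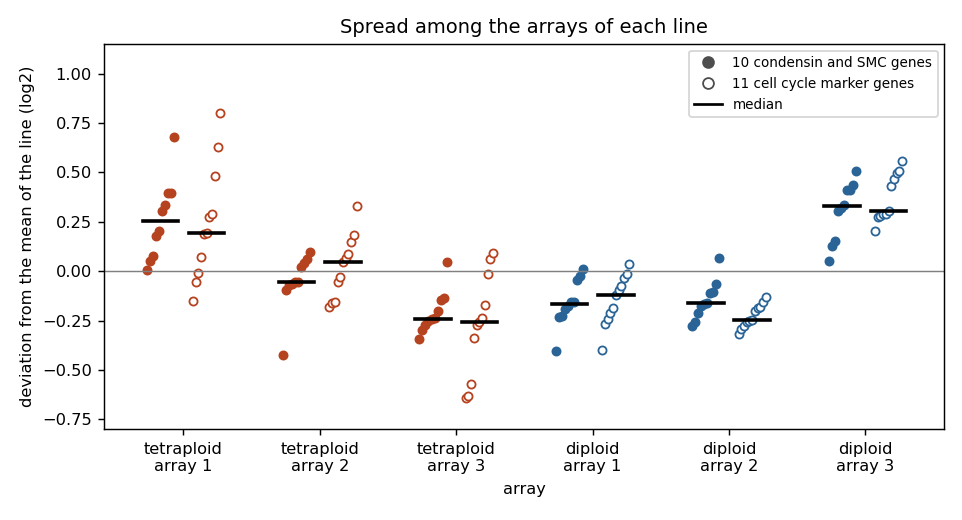
Deviation of each gene from the mean of its line on each array, in log2 units, for the 10 members (filled) and 11 cell cycle marker genes (open); short lines are medians. Both sets sit high on diploid array 3 and tetraploid array 1 and low on tetraploid array 3.

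Of those 11 cell cycle genes, 8 rose, against 6.08% of all genes, and 3 did not pass. The median difference of the 11 was 1.34, close to the 1.51 of the 8 condensin subunits (no test was made of these medians). Those that did not pass were Mcm6 (1.52, limma adjusted p = 0.0530), Plk1 (0.57, 0.240) and Rrm2, which was lower in the tetraploid line (-0.56, 0.322), all 3 named after their values were seen. Mcm5, a subunit of the replicative helicase, was 3.46-fold higher (limma adjusted p = 0.00660). Ccnb2, a mitotic cyclin, was 2.70-fold higher (limma adjusted p = 0.0146), a call that ended without diploid array 1 or 2 (limma adjusted p 0.0605 and 0.0671). Without 1 array the number that rose ranged from 1 (without diploid array 1 or 2) to 9 (without tetraploid array 3); it was 3 without tetraploid array 2 and 5 without tetraploid array 1.

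Outside the SMC pair, the cohesin ring moved unevenly. Rad21, the kleisin that closes the ring and is cut by separase at anaphase, stood at 12.35, 12.30 and 12.31 against 10.88, 10.85 and 11.05. It was 2.62-fold higher (1.39 ± 0.18, SE, n = 3 per line; limma adjusted p = 0.00575), and the call held whichever array was left out. The alternative STAG subunits, named for completeness after their values were seen, did not pass: Stag1 differed by 0.45 (limma adjusted p = 0.240) and Stag2 by 0.29 (limma adjusted p = 0.357). The meiotic cohesin subunits Smc1b, Rec8, Rad21l and Stag3 did not pass (limma adjusted p 0.190 to 0.933). The first 3 lay at or below background on all 6 arrays.

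Among 13 genes that load, acetylate, protect or cut cohesin, 9 rose, against 6.08% of all genes, and 4 did not pass. The median difference of the 13 was 1.11. Sgo1, which shields centromeric cohesin, stood at 9.60, 9.32 and 9.28 against 7.04, 6.74 and 8.01, and passed the test (limma adjusted p = 0.0115). Its diploid values on arrays 1 and 2 were below background, so no fold is given. Espl1, the separase that cuts the cohesin kleisin, was 3.79-fold higher (limma adjusted p = 0.00448). Pttg1, the securin that holds separase inactive, was 2.90-fold higher (limma adjusted p = 0.0103). Cdca5, the sororin that stabilises cohesin on replicated DNA, stood at 8.75 ± 0.09 against 7.22 ± 0.47 (SD, n = 3; limma adjusted p = 0.0153), with diploid array 2 below background. The calls of Sgo1 and Espl1 held whichever array was left out. That of Pttg1 ended without diploid array 2 (limma adjusted p = 0.0522), and that of Cdca5 without diploid array 1 or 2 (limma adjusted p 0.0536 and 0.0523). Of the 13, the number that rose was 6, 5 and 6 without tetraploid arrays 1 to 3 and 3, 2 and 5 without diploid arrays 1 to 3.

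The SMC5/6 complex, the relative of condensin and cohesin that acts in DNA repair, had calls in both directions. Of its 8 genes 2 rose, against 6.08% of all genes, 1 fell, against 7.75%, and 5 did not pass. The median difference of the 8 was 0.47. In 6 of the 8, all tetraploid values lay above all diploid values, as they did in 19.1% of all genes. In the rest of the 8, all tetraploid values lay below all diploid values, a share not computed over all genes. Slf1, which helps recruit the complex to damage, was 2.50-fold higher (limma adjusted p = 0.0221), and Nsmce2, its SUMO ligase, 2.19-fold (limma adjusted p = 0.0167). Nsmce3, a subunit of the MAGE family, stood at 8.32 ± 0.16 against 9.20 ± 0.15 (SD, n = 3) and was 1.84-fold lower (limma adjusted p = 0.0321). The SMC genes Smc5 and Smc6, named after their values were seen, differed by 0.56 and 0.39 (limma adjusted p 0.102 and 0.237). Each of these 3 calls ended without diploid array 1 or 2 (limma adjusted p 0.0630 to 0.122). That of Slf1 also ended without tetraploid array 1 or 2 (limma adjusted p 0.0504 and 0.0644), that of Nsmce2 without diploid array 3 (0.0612), and that of Nsmce3 without tetraploid array 2 or 3 or diploid array 3 (0.0795, 0.0690 and 0.104).

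Of 9 genes that work beside condensin on chromosomes, or carry an SMC hinge, 4 rose, against 6.08% of all genes, and 5 did not pass. The median difference of the 9 was 0.85. The number that rose was 3 without tetraploid array 1, 2 without tetraploid array 3 and 3 without diploid array 3. Top2a, the topoisomerase that untangles mitotic chromosomes, stood at 11.52 ± 0.19 against 10.17 ± 0.40 (SD, n = 3; limma adjusted p = 0.0190). Top2b, its relative that is also made in resting cells, stood at 9.92 ± 0.11 against 10.44 ± 0.25 and did not pass (limma adjusted p = 0.154); it was named after its values were seen. Mcph1, a restraint on condensin II, was 2.33-fold higher (limma adjusted p = 0.0195), the chromokinesin gene Kif4 2.59-fold (limma adjusted p = 0.0440) and Mki67, which coats mitotic chromosomes, 2.29-fold (limma adjusted p = 0.0246). All 4 calls ended without tetraploid array 2 or without diploid array 1 or 2 (limma adjusted p 0.0523 to 0.139). Those of Mki67 and Kif4 also ended without tetraploid array 3 (limma adjusted p 0.0591 and 0.0733), and that of Kif4 without tetraploid array 1 or diploid array 3 (limma adjusted p 0.0876 and 0.0551).

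**Figure D5:**
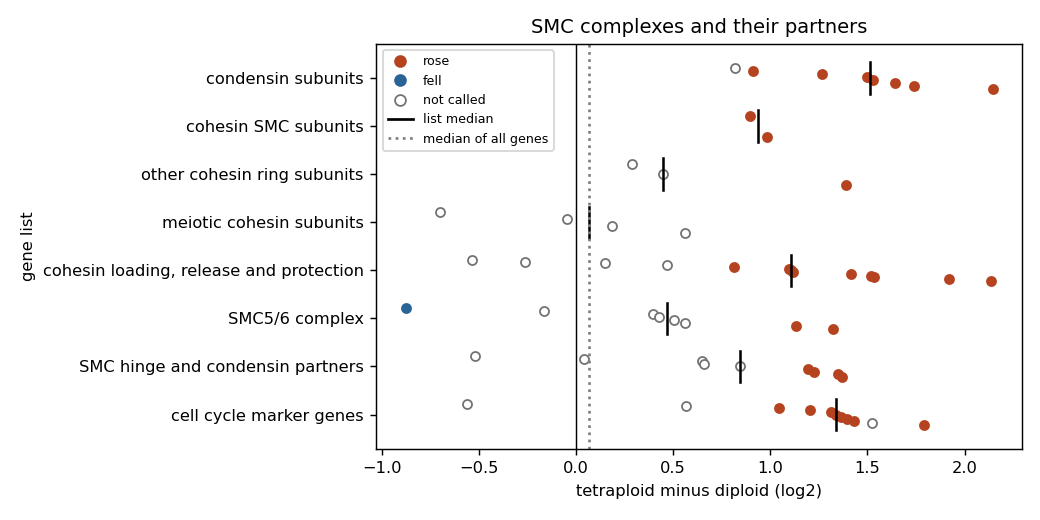
Log2 difference between the lines for the members and 6 lists of related genes. Points are genes, filled where the test was passed, and short lines are list medians, which run from 0.07 for the meiotic subunits to 1.51 for the condensin subunits.

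Genes outside these lists whose pattern was most like that of the condensin subunits were found by the root-mean-square difference between centred log2 profiles over the 6 arrays, against the mean profile of the 8 condensin subunits. The 5 closest of 9903 genes were Ccdc34 (0.0666), Pbk (0.0715), a mitotic kinase gene, Chaf1b (0.0731), a chromatin assembly factor gene, Cenpa (0.0825), the centromeric histone gene, and Atad2 (0.0825). These 9903 were the genes outside the lists with a mean above the median of all genes. Over them the median root-mean-square difference was 0.771. Among the members, Ncapg2 (0.0979) and Smc4 (0.119) lay closest to the mean profile that they enter, and Smc2 (0.392) and Ncapd2 (0.368) farthest.

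The genes next to each member shifted less than the member in the median. Over the 10 measured genes on either side, the median difference ran from -0.39 beside Ncapd3 to 0.52 beside Ncaph2, below the member's own difference in all 10 cases. Beside Ncaph2, 3 of 20 neighbours rose, as did 3 of 20 beside Smc4, against 6.08% of all genes. For each of the other members 0 to 2 of 20 rose. Beside Ncapd3, 4 of 20 fell, against 7.75% of all genes, and beside each other member 0 to 2 fell. The median over the whole chromosome of Ncaph2 was 0.26, the highest for any member, and that of Smc4 was 0.19.

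Fibroblast markers checked the labelled cell type: 9 of 10, Col1a1 and Vim among them, lay above background on all 6 arrays, and Lum did so on the diploid arrays only. The mean of these 10 was 10.97 to 11.56 in the tetraploid line against 11.66 to 12.04 in the diploid line, opposite to the members, with 3 of 10 higher in the tetraploid line. Col1a1 and Lum fell (limma adjusted p 0.0404 and 0.0172). The call of Col1a1 ended without any 1 array except tetraploid array 3 (limma adjusted p 0.0664 to 0.139), and that of Lum without diploid array 2 or 3 (limma adjusted p 0.0658 and 0.0632). Array medians differed by at most 0.0435. The mean of 6 macrophage and leukocyte markers was 4.26 to 4.82 in the tetraploid line against 5.47, 6.57 and 7.27 for diploid arrays 1 to 3, the last being the array on which the members were high within that line. Of these 6, 3 lay at or below background on all arrays, the leukocyte marker Ptprc among them. Lyz2 was the only 1 that fell (limma adjusted p = 0.0292), at 6.48, 9.32 and 9.98 on diploid arrays 1 to 3. It lay above background only on diploid arrays 2 and 3. The call of Lyz2 ended without tetraploid array 2 or 3 or diploid array 2 or 3 (limma adjusted p 0.0525 to 0.0972). The mean of 5 endothelial markers was 5.75 to 5.94 against 6.49 to 6.73, with 4 of 5 at or below background throughout. Kdr alone of these did not overlap between the lines and fell (difference -3.17, limma adjusted p = 0.00270), a call that held whichever array was left out. The median difference of the 5 was -0.28. The mean of 5 epithelial markers was 6.64 to 7.22 against 7.45 to 7.98. Cdh1 lay above background on all 6 arrays, Epcam and Krt19 on 5 each, and Krt8 on none. Krt18 alone of the 5 did not overlap and fell (difference -3.59, limma adjusted p = 0.0182), and their median difference was -0.08. The call of Krt18 ended without tetraploid array 2 (limma adjusted p = 0.0546). Kdr and Krt18 were singled out after their values were seen. Kdr lay above background on the diploid arrays only, and Krt18 on 2 diploid arrays only. The sizes of both differences thus rest on tetraploid values below background. With values raised to background, Kdr still passed (limma adjusted p = 0.0249) and Krt18 did not (limma adjusted p = 0.463). The part of any of these markers in the members' differences was not tested.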

How the data were processed

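The authors deposited 1 log2 value per probe set and array, made with Affymetrix Expression Console per the submitters' processing notes. Version, algorithm and normalization are not given in the sources used. The log2 scale was checked on the values: the linear values below 1000 were whole hundredths (tolerance 0.001) in 100% of cases. The deposited values were used unchanged. Of 28944 probe sets, 21789 carried 1 gene symbol, 1621 several and 5534 none. For 999 genes with several probe sets the highest mean was kept. The background level was the 95th percentile of 1027 olfactory receptor genes on each array, 7.01 to 7.41. Arrays give no depth, and their number limits the precision.

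The fit used lmFit and eBayes of limma 3.58.1 (R 4.3.3) over 19938 genes, and corresponding subunits with an exact permutation test in scipy 1.17.1. Deviations of same-numbered arrays correlated at 0.100, 0.0309 and -0.0462 across genes, so no block was used. The text names all members, up to 6 called genes per related list by size, others where stated, and the 5 nearest profiles. Alternatives were median centring, quantile normalization, a filter at the median level, raising values to background, averaging probe sets, a trended prior, the block, and leaving out each array. Members, lists and background rule were chosen with earlier results of these data known.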

Additional observations from a re-analysis of the deposited data

How the results depend on the processing

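Over 13 alternatives all 10 members kept their direction. Leaving out an array could not reverse it, as no member overlapped between the lines. Of 130 refits of single members, 103 stayed on their side of the threshold, 27 lost the call and 0 gained it. Median centring, quantile normalization, the filter at the median level, values raised to background, averaged probe sets and the trended prior each left 9 members called. Of these, averaging and raising to background left the members' own values unchanged. Each member has 1 probe set, and all its values lie above background. Only the fit over the other genes could differ there. With the replicate number as a block, 5 members and 1647 of all 19938 genes were called, and 56.9% of the 2758 calls made without it were kept. Under the block, 4 of the 9 cohesin regulators that rose were called up, as were 3 of the 8 cell cycle genes, 1 of the 4 condensin partners and 1 of the 2 SMC5/6 genes. Leaving out 1 array gave 2 to 8 members and 839 to 2522 genes. The cause of these lower counts beyond the smaller number of samples was not tested. Without diploid array 2, 29.9% of the 2758 calls were kept. The change of Ncaph minus Ncaph2 (-0.03) became 0.03 without tetraploid array 1 and 0.16 without diploid array 3, and ranged from -0.14 to 0.16. That of Smc1a minus Smc3 (-0.09) became 0.068 without tetraploid array 3 and ranged from -0.25 to 0.068. The other 3 pairs kept their direction in all settings run. All members lay above background on every array, so signal over background limited none of them.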
